A study of Mus musculus with 80 samples.

Results

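The 10 genes described here, Nanog, Klf2, Klf4, Klf5, Esrrb, Tfcp2l1, Tbx3, Prdm14, Nr0b1 and Nr5a2, encode transcription factors of the naive pluripotent state and were chosen by symbol, as 10 of 37890 symbols listed in the 12 expression tables used. Mouse embryonic stem (ES) cells, cultured lines from the early embryo that renew themselves, were profiled by RNA-seq in 12 libraries. The other 68 samples of the series, on chromatin and modified DNA, were not used here. Of Sall4 KO cells with SALL4A put back, the mutant form had 2 libraries and the wild-type form 1. Sall4 KO cells (Sall4 delta/-) and Sall4 het cells (Sall4 flox/-) had 2 each. The Sall1-/-/Sall4-/- double knockout (DKO) and its wild-type control, Sall1 KO (Sall1 delta/-) and Sall1 het (Sall1 flox/-), and the wild-type line TT2 had 1 library each. SALL4 and SALL1 are zinc finger proteins of the spalt-like family.

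Both Sall4 het and Sall1 het carry a null allele, so the single knockouts are set against heterozygous and not against wild-type cells. The add-back cells carry the Sall4 KO alleles, and neither the promoter that drives the added SALL4A nor the change in the mutant is named in the labels. The strain label is C57BL/6J for replicate 1 and for the libraries without a replicate, 129P2/OlaHsd (line E14.1) for replicate 2, and (C57BL/6NCrlj x CBA/JNCrlj)F1 for TT2. Values were FPKM (fragments per kilobase of transcript, scaled to the mapped fragments), or RPKM (the same for reads) in replicate 2, units from which depth cannot be read, and no counting interval is given. The labels do not name separate cultures for libraries of a group, and the p-values then cover only library-to-library spread. That spread may be technical, or may come with strain label, unit and annotation, which change between the replicates. In bulk libraries, fewer cells that express a gene and less RNA per cell cannot be told apart.

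The RNA of the deleted genes checked the labels in part. Sall4 stood at 358 and 218 in the libraries labelled Sall4 KO against 196 and 64.2 in Sall4 het, and at 109 in the library labelled DKO against 17.6 in its control, which goes against the label. The deleted exons are not given in the sources used here, so a value for the whole gene does not test the deletion, and all directions are given for the libraries as labelled. Sall1 was 2.27 in the library labelled DKO against 13.9 in its control, and 13.3 in the library labelled Sall1 KO against 21.8 in Sall1 het. The 8 core ES cell markers (Pou5f1, Sox2, Zfp42, Dppa2, Dppa4, Utf1, Tdgf1 and Lin28a) were at 1 or more in every library, with sums from 1876 to 2609. The 7 fibroblast markers summed to 223 in the DKO and 212 in its control, to 69.6 in Sall1 KO and 73.3 in Sall1 het, and to between 2.38 and 16.2 in the other 8 libraries.

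Naive pluripotency is the state of the inner cell mass of the blastocyst, held in culture by leukaemia inhibitory factor (LIF) and by WNT signalling. LIF acts through STAT3, which drives Klf4 and Tfcp2l1, WNT signalling relieves TCF7L1 repression of Esrrb, Nanog and others, and FGF to ERK signalling moves cells out of the state. The factors bind each other's control regions together with the core factors OCT4 (encoded by Pou5f1) and SOX2, so the loss of a single member is often tolerated. SALL4 is itself a partner of OCT4 and NANOG in ES cells.

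The 4 promoter stretches shown here were chosen among the members with a window in the promoter table. Nanog and Tfcp2l1 carried the largest differences, and the transcript levels estimated in the TT2 library differed between the starts of Nr5a2. Each gives the 250 bases before an annotated start, read on the gene's strand, from RefSeq on build GRCm38.p6. Capitals mark matches, on either strand, to a POU (ATGCAAA), SOX (ACAATG) or KLF (GGGNGTG) motif. Letters for ESRRB and NR5A2 (AAGGTCA), STAT (TTCCNGGAA), TCF7L1 (CTTTGAA) and SALL4 (ATATT) were searched too.
Nanog, chr6:122707239-122707488, plus strand: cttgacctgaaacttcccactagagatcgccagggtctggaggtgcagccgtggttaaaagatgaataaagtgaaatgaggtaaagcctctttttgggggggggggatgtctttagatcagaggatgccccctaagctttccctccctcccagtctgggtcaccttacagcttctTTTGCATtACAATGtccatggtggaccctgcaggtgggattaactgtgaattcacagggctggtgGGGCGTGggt
Tfcp2l1, chr1:118627695-118627944, plus strand: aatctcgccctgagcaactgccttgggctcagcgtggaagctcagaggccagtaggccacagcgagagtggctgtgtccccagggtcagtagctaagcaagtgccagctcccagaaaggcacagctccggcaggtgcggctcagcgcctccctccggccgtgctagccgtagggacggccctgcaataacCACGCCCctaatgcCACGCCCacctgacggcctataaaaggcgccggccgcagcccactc
Nr5a2, inner start, chr1:136953631-136953880, minus strand: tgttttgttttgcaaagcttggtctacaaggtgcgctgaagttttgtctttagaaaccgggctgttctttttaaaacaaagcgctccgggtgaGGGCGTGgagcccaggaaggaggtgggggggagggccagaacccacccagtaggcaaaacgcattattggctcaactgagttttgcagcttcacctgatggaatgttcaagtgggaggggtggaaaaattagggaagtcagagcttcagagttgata
Nr5a2, outer start, chr1:136960449-136960698, minus strand: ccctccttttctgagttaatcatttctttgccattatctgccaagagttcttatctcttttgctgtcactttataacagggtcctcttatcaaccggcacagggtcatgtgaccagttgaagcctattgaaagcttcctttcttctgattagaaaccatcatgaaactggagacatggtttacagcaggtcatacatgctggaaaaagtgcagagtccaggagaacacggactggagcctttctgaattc

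In the Nanog stretch a POU and a SOX match, the known composite site of OCT4 and SOX2, begin 75 and 67 bases before the start, 1 base apart. Windows with a POU match make up 4.12% of the 32851 promoter windows of the genome table, and those with a SOX match 10.7%. The Tfcp2l1 stretch has KLF matches at 60 and 46 bases before the start, both on the opposite strand, where 26.1% of windows have at least 1. The table held 10 windows of 7 members (Nanog, Klf2, Klf4, Esrrb, Tfcp2l1, Nr0b1 and Nr5a2), of which 6 windows of 5 members had a KLF match and the 2 overlapping windows of Nanog had POU and SOX matches. None of the 10 held the letters searched for ESRRB and NR5A2 (4.08% of all windows), STAT (0.913%), TCF7L1 (4.46%) or SALL4 (23.3%), which says only that these letters are not in these windows. CpG dinucleotides ranged from 32 in the window of Klf4, 29 in that of Klf2, 16 in that of Tfcp2l1 and 11 in that of Nr0b1 to 6 and 3 in the windows of Esrrb, 6 and 2 in those of Nr5a2 and 3 and 2 in those of Nanog, with a median of 6 over all windows.

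**Figure D1:**
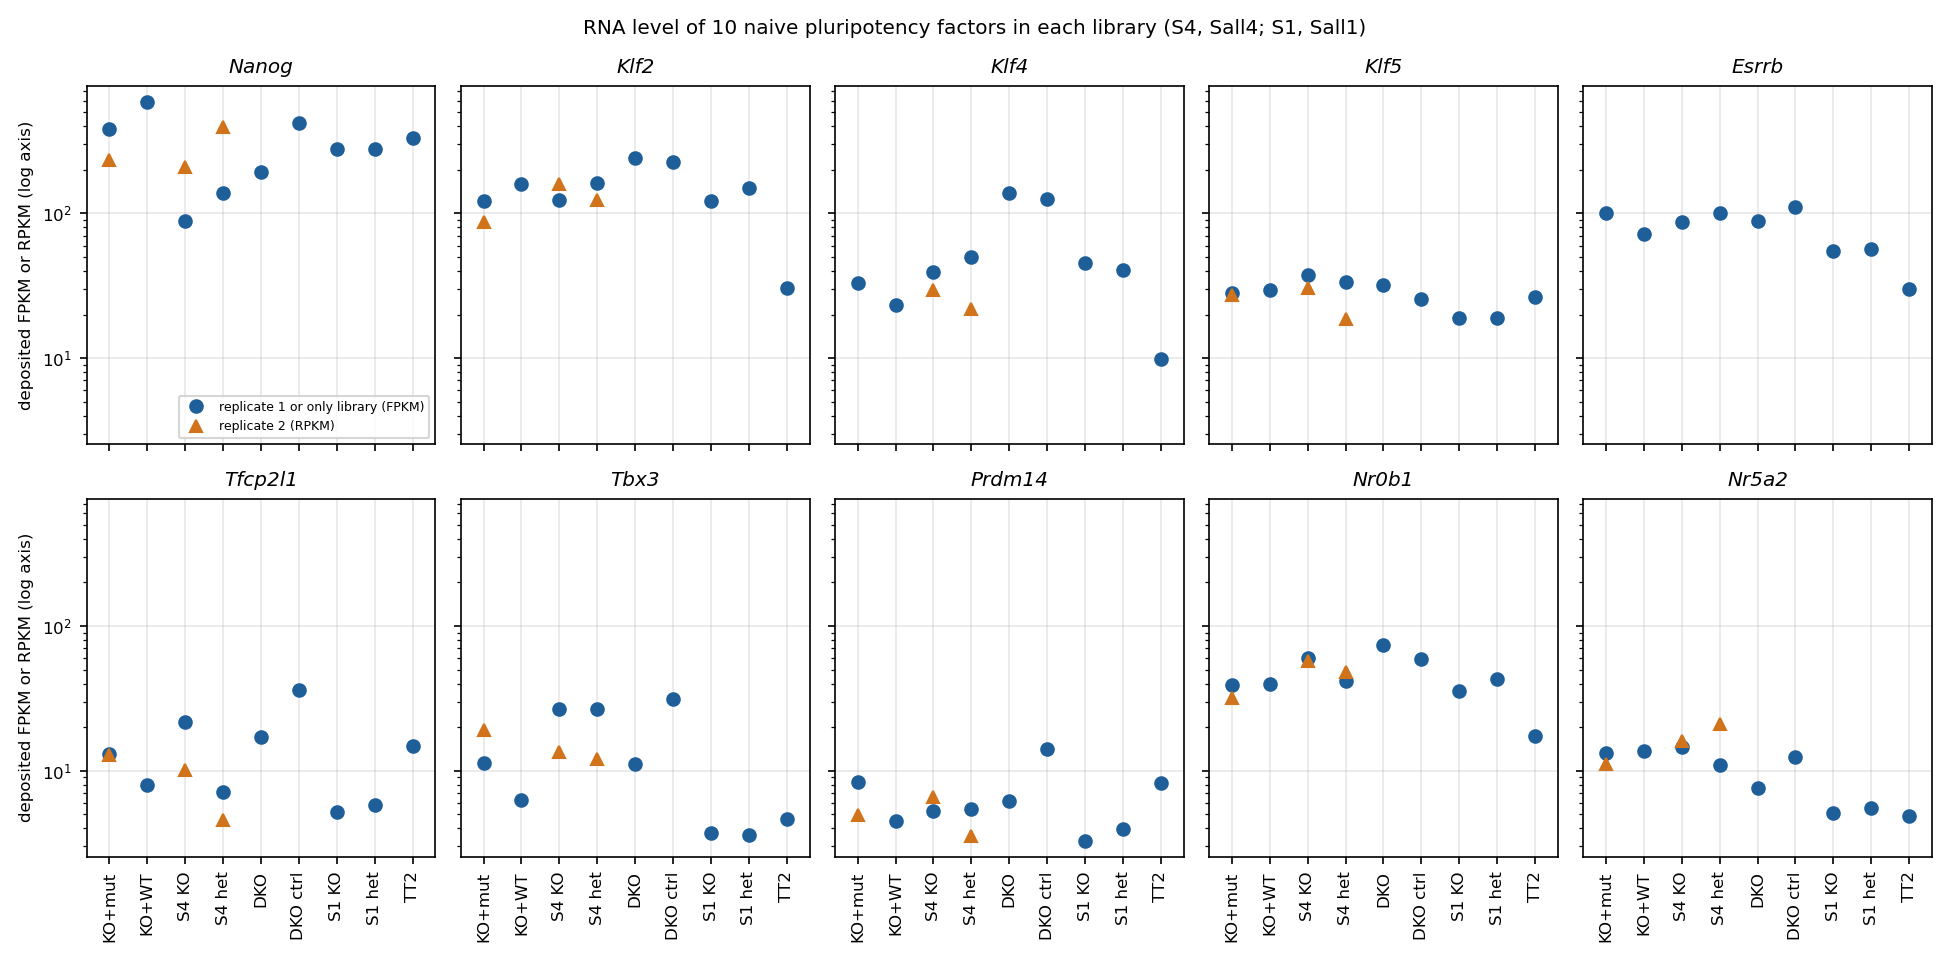
Deposited level of each factor in each library, on a log axis, with circles for replicate 1 or the only library (FPKM) and triangles for replicate 2 (RPKM). Nanog and Klf2 lay highest in every library, and no triangle is drawn for Esrrb, which the replicate 2 tables do not list.

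Nanog and Klf2 were the most abundant of the 10 per unit of transcript length in every library. Nanog held the highest value in 9 of 12 libraries and Klf2 in the other 3, which were Sall4 KO replicate 1, Sall4 het replicate 1 and the DKO. Prdm14, a zinc finger repressor that keeps the DNA methyltransferase genes low, ranked between 8 and 10 among the members throughout. Deposited values of Klf5 lay between 18.7 RPKM (Sall4 het replicate 2) and 37.6 FPKM (Sall4 KO replicate 1). Those of Klf4 lay between 9.82 FPKM (TT2, given per transcript) and 139.5 FPKM (DKO). Units and annotations differ across these libraries, so the ranges do not rank how much the genes varied. All 10 were at 1 or more wherever they were listed. Of the 10, 8 were listed in all 12 libraries. Esrrb was not listed in the 3 replicate 2 tables and Klf4 was not listed in that of KO plus mutant replicate 2. Nanog and Klf2 thus changed places between libraries, as did neighbours from the third place down, and the tables also differ in annotation and unit.

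Between Sall4 KO and Sall4 het, no member passed the test. Tfcp2l1, a CP2-family factor downstream of LIF and STAT3, stood highest, with Sall4 KO above Sall4 het in both replicates. Nanog, the homeodomain factor that lets ES cells renew with little LIF, stood lowest, with Sall4 KO below Sall4 het in both replicates. The limma test over all genes called 0 of 15094 genes (0%) at an adjusted p under 0.05. At an unadjusted p under 0.05 there were 581 genes higher (3.85%) and 713 lower (4.72%), and 1 of the 9 members tested was among the higher ones.

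Tfcp2l1 had 21.6 FPKM and 10.1 RPKM in Sall4 KO replicates 1 and 2, against 7.09 FPKM and 4.55 RPKM in Sall4 het replicates 1 and 2. Sall4 KO lay above Sall4 het within each replicate. The log2 change was 1.20 ± 0.33 (SE, n = 2 per group), with an unadjusted limma p of 0.0181 and an adjusted p of 0.484. On the 4 Sall4 KO and Sall4 het libraries alone, it was 1.20 ± 0.27 (limma unadjusted p = 0.00929, adjusted p = 0.313). In the pairs of single libraries, the log2 ratio was 1.50 in replicate 1, which exceeded 2-fold as did 8.58% of genes in that pair, and 0.94 in replicate 2, just under 2-fold. No other member reached 2-fold in replicate 1, and none did in replicate 2, where 13.5% of genes did. The ratio of Tfcp2l1 lay above that of 98.0% of genes in replicate 1 and of 93.7% in replicate 2.

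Nanog had 88.9 FPKM and 208 RPKM in Sall4 KO replicates 1 and 2, against 138 FPKM and 397 RPKM in Sall4 het replicates 1 and 2. Within each replicate Sall4 KO was lower, while the values overlapped across the replicates, whose units differ. The log2 change was -0.82 ± 0.62 (SE, n = 2 per group, limma adjusted p = 0.792), with ratios of -0.61 in replicate 1 and -0.99 in replicate 2. The change was -1.50 without Sall4 het replicate 1 and -0.13 without Sall4 het replicate 2. The main and these leave-out fits share their spread and replicate term with the KO plus mutant libraries. On the 4 Sall4 KO and Sall4 het libraries alone, the change was -0.82 ± 0.24 (limma unadjusted p = 0.0226, adjusted p = 0.366).

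Klf2, Klf4 and Klf5, zinc finger factors that together sustain self-renewal, gave log2 changes of -0.06 ± 0.30, 0.01 ± 0.29 and 0.39 ± 0.27 (SE, n = 2 per group). Klf2 had 124 FPKM and 159 RPKM in Sall4 KO against 163 FPKM and 124 RPKM in Sall4 het, so its replicates went opposite ways. Klf4, a target of LIF and STAT3, had 39.6 FPKM and 29.4 RPKM in Sall4 KO against 50.0 FPKM and 21.8 RPKM in Sall4 het, again in opposite directions. Klf5 was higher in both replicates, at 37.6 FPKM and 30.6 RPKM in Sall4 KO against 33.4 FPKM and 18.7 RPKM in Sall4 het. Its values overlapped across the replicates, whose units differ.

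Of the nuclear receptors, Nr0b1 stood higher in both replicates, Nr5a2 was close to 0 and Esrrb was not tested. Nr0b1 (DAX1), which binds OCT4 and holds back its activity, had 59.9 FPKM and 57.6 RPKM in Sall4 KO against 42.0 FPKM and 47.8 RPKM in Sall4 het, a log2 difference of 0.34 ± 0.25 (SE, n = 2 per group, limma adjusted p = 0.781). Within each replicate its Sall4 KO value lay above its Sall4 het value. Nr5a2 (LRH-1), an activator of Pou5f1, had 14.6 FPKM and 16.0 RPKM in Sall4 KO against 10.9 FPKM and 21.1 RPKM in Sall4 het, a change of -0.03 ± 0.35. Esrrb, an orphan receptor and target of TCF7L1, had 86.9 FPKM in Sall4 KO against 101 FPKM in Sall4 het, in replicate 1 alone, and entered no test.

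Tbx3, a T-box factor downstream of LIF signalling, had 26.9 FPKM and 13.6 RPKM in Sall4 KO against 26.9 FPKM and 11.97 RPKM in Sall4 het. The log2 difference was 0.05 ± 0.52 (SE, n = 2 per group), with a spread shared with the KO plus mutant libraries. On the 4 Sall4 KO and Sall4 het libraries alone, it was 0.04 ± 0.21. Prdm14 had 5.28 FPKM and 6.61 RPKM in Sall4 KO against 5.46 FPKM and 3.54 RPKM in Sall4 het, a change of 0.31 ± 0.29. Limma adjusted p-values of Klf2, Klf4, Klf5, Nr5a2, Tbx3 and Prdm14 were between 0.770 and 0.998. Of the 9 members in both replicates, 5 had the same direction in each and 4 had opposite ones.

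**Figure D2:**
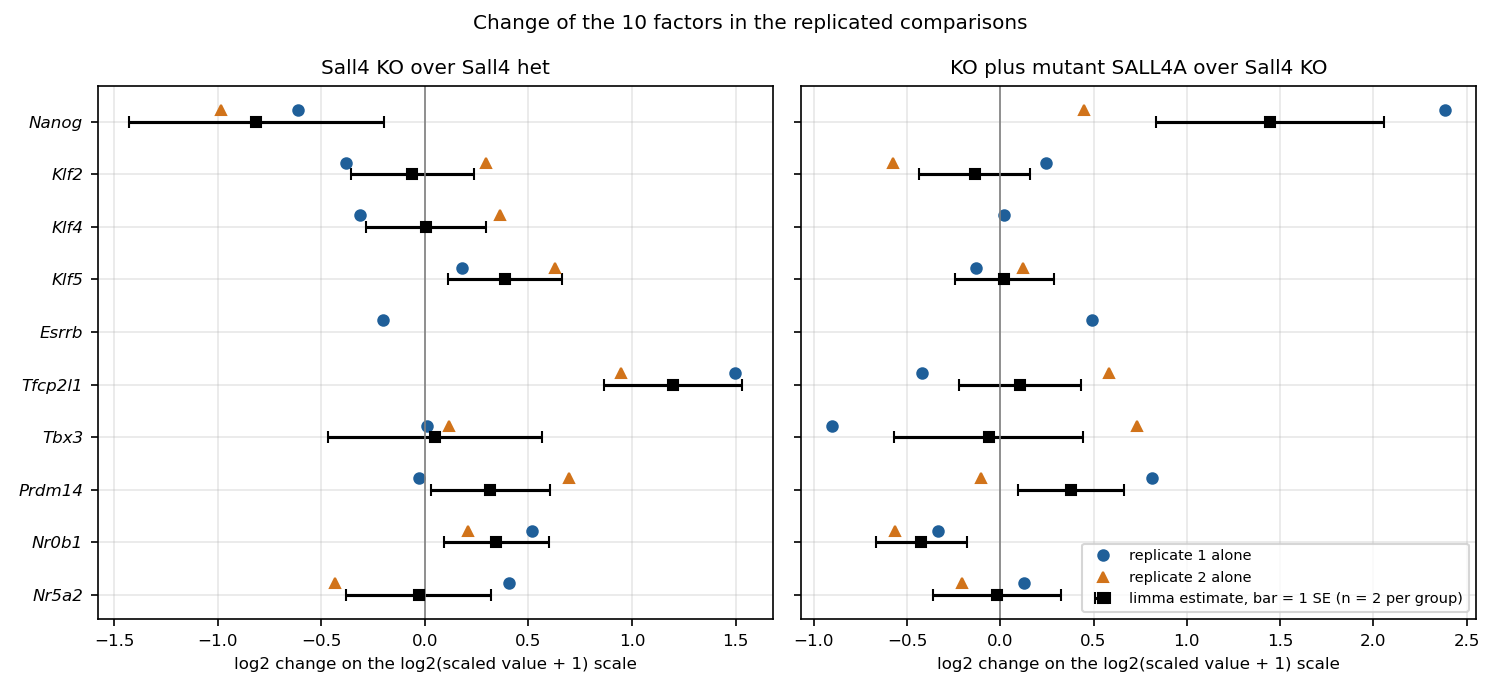
Log2 change of each factor in Sall4 KO over Sall4 het (left) and in KO plus mutant SALL4A over Sall4 KO (right), with squares for the limma estimate (bar, 1 SE), circles for replicate 1 alone and triangles for replicate 2 alone. Tfcp2l1 lies at 1.20 on the left and Nanog at 1.44 on the right, and the replicates lie on opposite sides of 0 for 4 of 9 and 6 of 8 factors.

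Inputs and outputs of the network were read from 15 further lists. Of the 8 LIF and STAT3 genes, 6 were above 0 and 2 below 0 in Sall4 KO over Sall4 het, with a median log2 change of 0.20 against -0.02 over all genes, and none passed the test. In the pairs of single libraries, 4 of 8 were above 0 in replicate 1 and 8 of 8 in replicate 2, with median ratios of -0.055 and 0.344. Junb, a target of STAT3, had 36.0 FPKM and 24.4 RPKM in Sall4 KO against 17.3 FPKM and 13.2 RPKM in Sall4 het, a change of 0.89 ± 0.27 (SE, n = 2 per group, limma adjusted p = 0.518). Of 8 TCF7L1 and WNT genes, 5 were above 0, and the lowest was Tcf7, a partner of beta-catenin, at -0.92 ± 0.25 (limma adjusted p = 0.482). Of 9 FGF and ERK genes tested, 6 were above 0, and the highest was Dusp6, an ERK phosphatase and ERK target, at 1.03 ± 0.35 (limma adjusted p = 0.541). All 8 co-regulators tested were above 0 in the fit, between 0.11 and 0.33, with none past the test. In the pairs, 6 of 8 were above 0 in replicate 1 and 6 of 9 in replicate 2.

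The 12 naive-state markers that are not members were evenly split, 6 above and 6 below 0. Dppa3, a maternal factor of the naive state, was the lowest, at 2.11 FPKM and 3.58 RPKM in Sall4 KO against 47.7 FPKM and 183 RPKM in Sall4 het, a log2 difference of -4.66 ± 0.72 (SE, n = 2 per group, limma adjusted p = 0.353). No list held a gene past the test. Of 8 primed epiblast genes tested, 5 were above 0, with Sox4 the highest at 0.94 ± 0.29 and Otx2 the lowest at -1.05 ± 0.37 (limma adjusted p = 0.511 and 0.557). In the pairs of single libraries, 5 of 6 primed epiblast genes at 5 or more were above 0 in replicate 1 and 3 of 6 in replicate 2. Their median ratios were 0.507 and -0.486. All 5 trophoblast genes and both primitive endoderm genes tested were above 0 in the fit, as were 7286 of all 15094 genes. In the pairs of single libraries, 3 of 3 trophoblast genes at 5 or more were above 0 in replicate 1 and 0 of 2 in replicate 2, where the median ratio was -0.20. Cdx2, which defines trophoblast, was low throughout, with 2.58 FPKM and 1.09 RPKM in Sall4 KO against 0.116 FPKM and 0.167 RPKM in Sall4 het. Among the rest, 5 of 8 core factors and 7 of 10 relatives of the members' families were above 0, and the 4 PRDM14-repressed genes and the 4 fibroblast genes were each split 2 and 2. Both neuroectoderm genes and the 3 genes of the 2-cell-like state that were tested were below 0 in the fit, and no mesoderm gene was tested. By replicate the 2-cell-like genes went opposite ways. In the pairs, 3 of 3 were at least 2-fold higher in replicate 1 and 3 of 3 at least 2-fold lower in replicate 2, with median ratios of 1.33 and -2.02.

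In KO plus mutant SALL4A against Sall4 KO, Nanog differed most among the members, and no member passed the test. Nanog had 386 FPKM and 233 RPKM in KO plus mutant, against 88.9 FPKM and 208 RPKM in Sall4 KO. KO plus mutant lay above Sall4 KO within each replicate, with a wide gap in replicate 1 and a narrow one in replicate 2. The log2 change was 1.44 ± 0.61 (SE, n = 2 per group, limma adjusted p = 0.535), with ratios of 2.38 in replicate 1 and 0.45 in replicate 2. Leaving out the first KO plus mutant library gave 0.33, with a limma adjusted p of 0.748, and leaving out the second gave 2.50, with a limma adjusted p of 0.0135. Each of these fits leaves 1 KO plus mutant library, which is assumed to vary like the libraries of the other groups. The replicate 1 tables of KO plus mutant and of Sall4 KO use different annotations, in which the Nanog entry spans chromosome 6, 122657585 to 122663796, and 122657506 to 122664651 (mm9), so in replicate 1 annotation and treatment cannot be told apart. In replicate 2 both tables give the wider entry.

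Limma called 0 of 11636 genes (0%) in this comparison, with 591 higher (5.08%) and 546 lower (4.69%) at an unadjusted p under 0.05, none of them a member. Leaving out KO plus mutant replicate 1 gave 282 calls, and leaving out its replicate 2 gave 764. Nr0b1 was the lowest member, at 38.9 FPKM and 31.6 RPKM in KO plus mutant against 59.9 FPKM and 57.6 RPKM in Sall4 KO. It was lower in both replicates, with a log2 difference of -0.42 ± 0.24 (SE, n = 2 per group, limma adjusted p = 0.594). Tfcp2l1 had 13.1 FPKM and 12.8 RPKM in KO plus mutant against 21.6 FPKM and 10.1 RPKM in Sall4 KO, and its replicates went opposite ways. Tbx3 did the same, with 11.4 FPKM and 19.0 RPKM in KO plus mutant against 26.9 FPKM and 13.6 RPKM in Sall4 KO. In replicate 1 its entry spans chromosome 5, 120120677 to 120134610, in KO plus mutant and 120061271 to 120134733 (mm9) in Sall4 KO. In replicate 2 both give the wider entry, so for Tbx3 too annotation and treatment cannot be told apart in replicate 1. Prdm14 had 8.32 FPKM and 4.97 RPKM in KO plus mutant against 5.28 FPKM and 6.61 RPKM in Sall4 KO.

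Klf2 had 121 FPKM and 87.0 RPKM in KO plus mutant against 124 FPKM and 159 RPKM in Sall4 KO, a log2 difference of -0.14 ± 0.30 (SE, n = 2 per group). Klf5 and Nr5a2 gave 0.02 ± 0.26 and -0.02 ± 0.34. Klf4 and Esrrb were measured in replicate 1 alone, with 33.1 FPKM and 101 FPKM in KO plus mutant against 39.6 FPKM and 86.9 FPKM in Sall4 KO. At 2-fold, Nanog in replicate 1 was the only member of 10, where 20.8% of genes passed that limit, and none of 8 members reached it in replicate 2, where 16.5% did. The deposited values of the KO plus mutant libraries run lower, by a median of 0.28 on the log2 scale in the fit without scaling, and Klf5 and Tfcp2l1 then gave -0.28 and -0.18. Of the further lists, 7 of 8 core factors and 9 of 12 naive-state markers were above 0, with medians of 0.40 and 0.32, against -0.02 over all genes. All 4 PRDM14-repressed genes and 7 of 8 TCF7L1 and WNT genes tested were below 0, with medians of -0.71 and -0.37. By replicate, the median ratios in replicates 1 and 2 were 0.63 and 0.09 for core factors and 0.52 and 0.41 for naive-state markers. They were -1.06 and -0.31 for PRDM14-repressed genes, and -0.31 and -0.27 for TCF7L1 and WNT genes. The annotations of KO plus mutant and Sall4 KO differ in replicate 1, so for the lists too annotation and treatment cannot be told apart there. Of the primed epiblast and the FGF and ERK genes, 6 of 8 each were below 0, as were 5 of 7 co-regulators, 5 of 8 LIF and STAT3 genes, 3 of 4 trophoblast genes, 2 of 3 fibroblast genes and both genes each of primitive endoderm and neuroectoderm. Of the relatives of the members' families 6 of 10 were above 0, and of the genes of the 2-cell-like state 3 of 3. In the pairs, 3 of 3 of the latter were above 0 in replicate 1 and 0 of 1 measured in replicate 2. No gene of any list passed the test.

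With wild-type SALL4A, measured in replicate 1 alone and with no test, Nanog had 587 FPKM against 88.9 FPKM in Sall4 KO, a log2 ratio of 2.94. Tbx3 had 6.26 FPKM against 26.9 FPKM in Sall4 KO, a ratio of -1.72, and Tfcp2l1 had 7.98 FPKM against 21.6 FPKM in Sall4 KO, a ratio of -1.11. These 3 of 10 members passed 2-fold, as did 22.7% of genes in the pair, and the annotations differ here too. The entries of Nanog and Tbx3 are wider in Sall4 KO, so annotation and treatment cannot be told apart in their ratios. The other 7 had ratios between -0.52 for Klf4 and 0.59 for Klf2. This pair shares its Sall4 KO library with the KO plus mutant pair of replicate 1, in which Nanog, Tbx3 and Tfcp2l1 had ratios of 2.38, -0.90 and -0.42. The tables of the add-back, DKO, Sall1 and control libraries with FPKM share their Nanog entry, and in these it lay between 193 FPKM in the DKO and 587 FPKM in KO plus wild type.

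**Figure D3:**
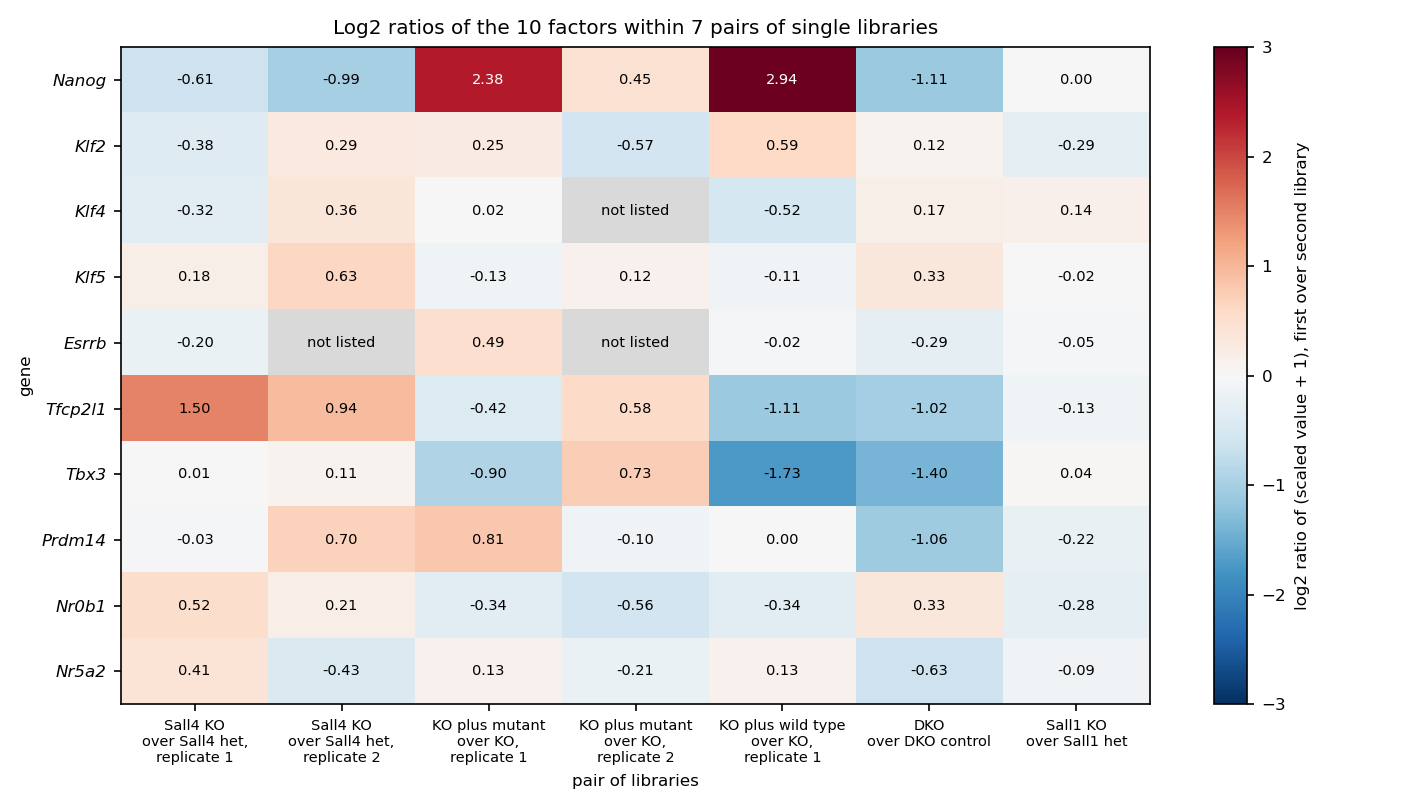
Log2 ratio of (scaled value + 1) for each factor in 7 pairs of single libraries, with red for higher and blue for lower in the library named first and grey where a table does not list the gene. Nanog stands at 2.38 and 2.94 in the replicate 1 add-back pairs, and the DKO column holds 4 ratios below -1.

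In the DKO, 4 of the 10 factors were more than 2-fold lower than in its control. These were Tbx3, Nanog, Prdm14 and Tfcp2l1, while the KLF genes and Nr0b1 differed little. Of all genes in this pair, 3.67% were at least 2-fold lower and 8.49% at least 2-fold different. Each group is 1 library, so the pair has no replicate check and no test.

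Tbx3 had 11.04 FPKM in the DKO against 31.2 FPKM in its control, a log2 ratio of -1.40, which is 0.380 of the control level. Nanog had 193 FPKM in the DKO against 425 FPKM in its control, a ratio of -1.11. Prdm14 had 6.16 FPKM in the DKO against 14.2 FPKM in its control, a ratio of -1.06, and Tfcp2l1 had 17.0 FPKM against 35.9 FPKM in its control, a ratio of -1.02. These control values were the highest of all 12 libraries for Tbx3, Prdm14 and Tfcp2l1. A separate entry named Nanogpd had 3.02 FPKM in the DKO against 14.1 FPKM in its control, and adding it to Nanog gave a ratio of -1.14.

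Nr5a2 had 7.54 FPKM in the DKO against 12.4 FPKM in its control, a log2 ratio of -0.63. Esrrb had 88.3 FPKM in the DKO against 110 FPKM in its control, a ratio of -0.29. Klf2 had 243 FPKM against 228 FPKM in its control, Klf4 139 FPKM against 126 FPKM, Klf5 32.2 FPKM against 25.7 FPKM and Nr0b1 73.7 FPKM against 59.5 FPKM, with ratios between 0.12 and 0.33. The list median was -0.46, against -0.01 over all genes. Fibroblast markers were as high in the control as in the DKO, with Col1a1 at 103 FPKM in the DKO against 97.9 FPKM in its control and 4 of 5 measured markers above 0, at a median ratio of 0.10. No fibroblast marker was at 0 in either library, and their part in these differences was not tested.

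Among genes that PRDM14 represses in mouse ES cells, Dnmt3l and Dnmt3b were more than 2-fold higher in the DKO than in its control. Prdm14 was lower in the same pair, and a link between these differences was not tested. Dnmt3l, the catalytically inactive partner of the de novo DNA methyltransferases, had 174 FPKM in the DKO against 24.9 FPKM in its control, a log2 ratio of 2.78. Dnmt3b, which encodes a de novo methyltransferase, had 36.1 FPKM in the DKO against 9.59 FPKM in its control, a ratio of 1.83. Fgfr1 and Dnmt3a had ratios of 0.17 and 0.01, so 2 of 4 measured genes passed 2-fold, where 4.83% of all genes were at least 2-fold higher. In Sall4 KO over Sall4 het, Dnmt3l and Dnmt3b gave 0.24 ± 0.29 and -0.55 ± 0.24 (SE, n = 2 per group, limma adjusted p = 0.892 and 0.625).

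Of 6 measured primed epiblast genes, 4 were at least 2-fold higher in the DKO, as were 4.83% of all genes in the pair. Of these 6, 5 were above 0 and 1 was below. The list holds 9 genes, and those under 5 in both libraries were not counted. Zic2, a zinc finger gene of the primed state, had 73.3 FPKM in the DKO against 8.23 FPKM in its control, a log2 ratio of 3.03, and Lef1, a WNT effector, had 10.3 FPKM against 0.554 FPKM in its control, a ratio of 2.88. Sox3 and Sox4 had ratios of 1.57 and 1.36. The keratin genes Krt18 and Krt8 had 73.3 FPKM and 63.9 FPKM in the DKO against 4.49 FPKM and 4.79 FPKM in its control. These 2 were the only trophoblast genes measured at 5 or more, so they say nothing of the factors that define trophoblast. The 8 core factors summed to 1968 in the DKO against 1876 in its control, and Utf1 alone passed 2-fold, at 1.46.

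For the primed epiblast, PRDM14-repressed and trophoblast lists, the control, like TT2, lay below every other library, while the DKO lay within or just above their range. Primed epiblast genes summed to 121 in the DKO against 37.0 in its control, with 25.6 in TT2 and between 85.7 and 133 in the other 9 libraries. PRDM14-repressed genes summed to 234 in the DKO against 56.7 in its control, with 63.4 in TT2 and between 182 and 434 in the other 9. Trophoblast genes summed to 141 in the DKO against 11.9 in its control, with 3.78 in TT2 and between 28.9 and 137 in the other 9. These are sums of deposited values, and units and listed genes differ between the tables.

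Among the inputs, Pim1, a STAT3 target, had 22.4 FPKM in the DKO against 65.0 FPKM in its control, a log2 ratio of -1.48, and it was the only one of 7 measured LIF and STAT3 genes past 2-fold. Socs3, another STAT3 target, had a ratio of 0.84. Of 8 measured FGF and ERK genes, Etv4 and Egr1, both activated by ERK, were past 2-fold, at -2.74 and -1.61, and the median was -0.07. Of 11 measured naive-state markers that are not members, Pecam1, an adhesion gene of the naive state, was alone past 2-fold, at -1.98. The co-regulators had none past 2-fold and a median of -0.08. Of 3 measured neuroectoderm genes, Sox1 stood at 2.36 and Tubb3 at -1.50, the only measured mesoderm gene, Gsc, stood at -1.58, and no primitive endoderm gene was measured at 5 or more. The Zscan4c, Zscan4d and Zscan4f genes of the 2-cell-like state, near-identical copies whose reads may be split between them, had ratios between -1.03 and -1.01.

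**Figure D4:**
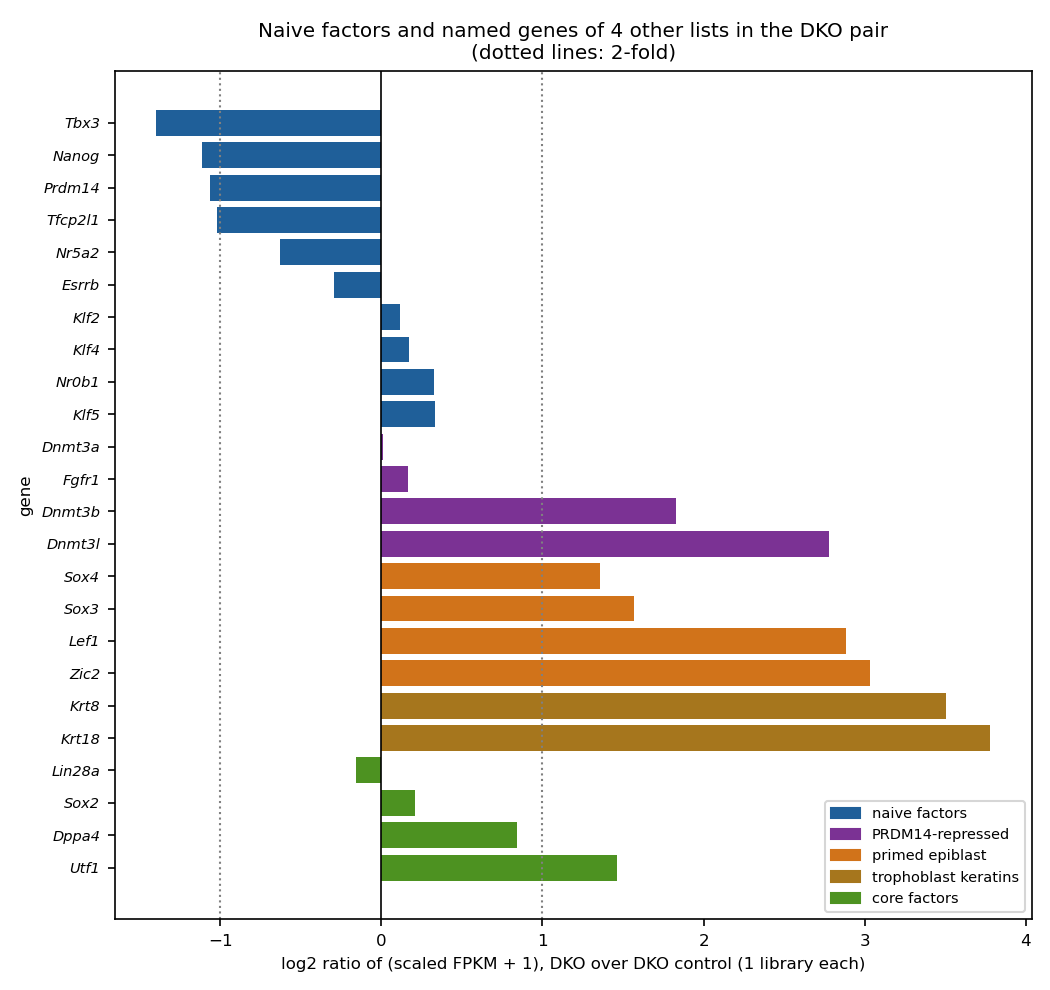
Log2 ratio of (scaled FPKM + 1) in the DKO over its control, 1 library each, for the 10 factors and for up to 4 genes with the largest ratios in each of 4 other lists. The bars of Tbx3, Nanog, Prdm14 and Tfcp2l1 pass the dotted 2-fold line on the left, and Dnmt3l, Dnmt3b, Zic2 and Lef1 pass it on the right.

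Between Sall1 KO and Sall1 het, no member reached 2-fold, and 1.35% of genes did. Nanog had 278 FPKM in Sall1 KO against 277 FPKM in Sall1 het. The largest differences were those of Klf2, at 123 FPKM in Sall1 KO against 149 FPKM in Sall1 het, and of Nr0b1, at 35.4 FPKM in Sall1 KO against 43.0 FPKM in Sall1 het, with log2 ratios of -0.29 and -0.28. Of the 8 members at 5 or more, 2 were above 0 and 6 below, with a median of -0.07. Tbx3 and Prdm14 were under 5 in both libraries, at 3.72 FPKM and 3.28 FPKM in Sall1 KO against 3.57 FPKM and 3.96 FPKM in Sall1 het.

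The TT2 table gave levels per transcript, the only view of start use in these data. Nr5a2 had 2.89 FPKM and 1.99 FPKM from its transcripts with inner starts, and 2.95e-06 FPKM from the transcript with the outermost start. The start of the transcript at 1.99 FPKM lies 10886 bases from the outermost one and had no promoter window. The inner start of the more abundant transcript lies 6818 bases from the outermost one in the mm9 table, the same distance as between the Nr5a2 promoter stretches printed above. Of those stretches, the inner one held a KLF match 157 bases before its start and the outer one held no match, where 26.1% of all windows have a KLF match. Esrrb took 96.5% of its FPKM from the transcript whose start lies 109000 bases inside the outermost start. That inner start had no promoter window. The window of the outermost Esrrb start, whose transcript had 2.15e-15 FPKM, held a KLF match 221 bases before the start. A relation of motif and start use was not tested.

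Tbx3 was split between its splice forms in TT2, with 55.5% and 3.80% from the transcripts of a RefSeq model and 40.7% from that of the other. Nanog divided 62.3% to 37.7% between transcripts whose starts lie 3 bases apart, and Tfcp2l1 61.4% to 38.6% between a long and a short transcript with the same start. Such divisions are estimates of the authors' software from shared reads. Klf2, Klf4, Prdm14 and Nr0b1 each had a single transcript. Summed by gene, TT2 held the lowest deposited value of any library for Klf2 (30.6 FPKM), Klf4 (9.82 FPKM), Esrrb (30.3 FPKM), Nr0b1 (17.4 FPKM) and Nr5a2 (4.88 FPKM). Nanog (334 FPKM) lay within the range of the others. TT2 was given per transcript, unlike the other libraries, so these values are not on a common scale. By percentile among genes at 1 or more, Klf2, Klf4, Esrrb and Nr0b1 were again lowest in TT2. Nr5a2 was not, at 40.5 in TT2 against 33 in Sall1 KO and 35 in Sall1 het.

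**Figure D5:**
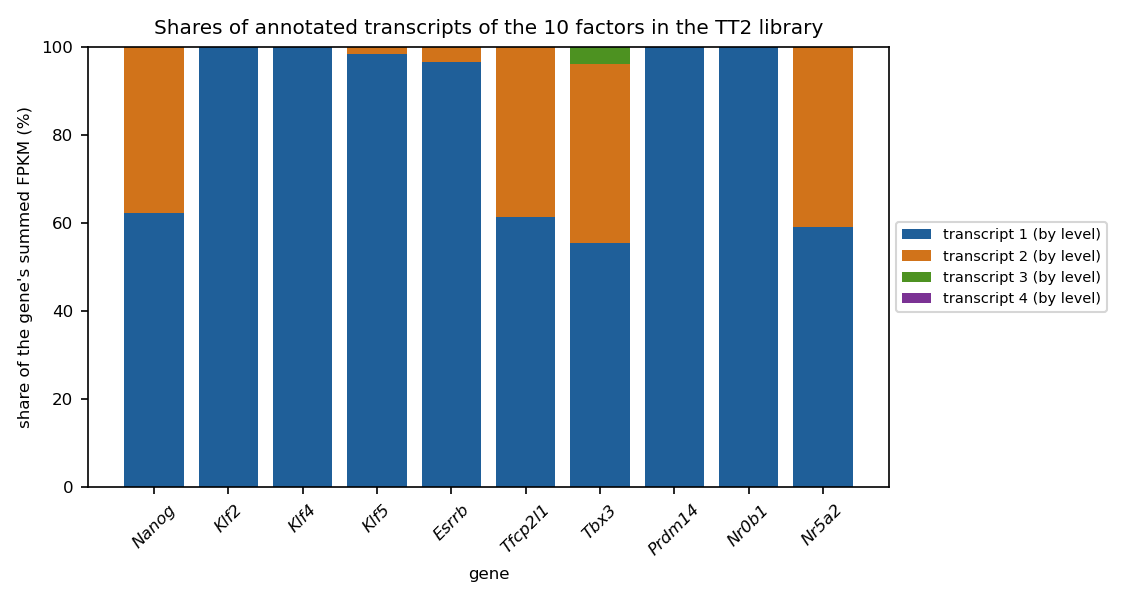
Share of each factor's summed FPKM that fell to each annotated transcript in the TT2 library, with transcripts stacked by level. Esrrb and Klf5 came almost wholly from a single transcript, and Nanog, Tfcp2l1, Tbx3 and Nr5a2 were divided.

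Across the 11 gene-level libraries the members did not follow a common course. Between members, log2(scaled value + 1) gave the highest Pearson r for Esrrb and Prdm14 (0.87 over 8 libraries), Tfcp2l1 and Prdm14 (0.85 over 11) and Klf2 and Klf4 (0.83 over 10), and Nanog had no r above 0.25 with any other member. Over 8783 genes listed in all 11 libraries, the gene most like Nanog was Psmc1 (0.96), that most like Tbx3 was Nipal3 (0.97) and that most like Prdm14 was Cpt1a (0.96). These are descriptions: the libraries share controls, and units and annotations differ between them.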

How the data were processed

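The deposited FPKM tables cover replicate 1 and all groups with 1 library, and the deposited RPKM tables cover replicate 2, per the file headers. The submitters' processing notes name TopHat, Bowtie 0.12.7, SAMtools and MACS 1.4.2 over the series, and the build mm9. The labels do not say which of them made which table. The Sall4 KO and Sall4 het tables have 37883 entries in replicate 1 (1225 without a gene name were left out) and 19049 in replicate 2. The add-back tables have 23234 in replicate 1 and 20223 in replicate 2, where 18 symbols were set by identifier, and the DKO and Sall1 tables have 23235. Of 21689 gene identifiers of the TT2 transcript table, 99.3% matched a symbol.

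Rows of a symbol were summed. For the 6 libraries in the fit, each library was scaled by its median ratio (taken over genes that reach 1 in all of them) and log2(value + 1) was used. Genes reaching 1 in at least 2 libraries entered limma 3.58.1 under R 4.3.3 (two-sided, trend, modelled on group plus replicate number, since unit and strain label change with the replicate number), with p-values adjusted by Benjamini and Hochberg over all genes and a threshold of 0.05. Deviations of same-numbered libraries from their group means correlated across 11636 genes at 0.58 between Sall4 KO and Sall4 het, at 0.07 between KO plus mutant and Sall4 KO and at 0.10 between KO plus mutant and Sall4 het. Fold changes on this scale understate the change of low genes. Single-library pairs have no test. Their ratios take the pseudocount of 1 and a median scaling within the pair, and counts at 2-fold cover genes whose higher value is at least 5. Both steps were tested on simulated data. In the simulation for limma, all groups shared the shift between replicates. It therefore does not test the fit where that shift differs by group, and the correlations with KO plus mutant were 0.07 and 0.10. The members and the gene lists were chosen with earlier results of these data known. Named are all members and, per other list, up to 4 genes with the largest change in Sall4 KO over Sall4 het and up to 4 in the DKO pair, of which some are printed. The relatives of the members' families in the DKO pair are not reported here. Ratios and figures were made with numpy 2.4.6, matplotlib 3.10.9 and pandas 2.3.3 under Python 3.11.15.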

Additional observations from a re-analysis of the deposited data

Results flagged for a closer look

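Several members had opposite directions in the replicates of a comparison, which carry different strain labels (C57BL/6J in replicate 1, 129P2/OlaHsd in replicate 2), and the differences between replicates were not tested. In Sall4 KO over Sall4 het, the log2 ratios in replicates 1 and 2 were -0.38 and 0.29 for Klf2, -0.32 and 0.36 for Klf4, -0.03 and 0.70 for Prdm14, and 0.41 and -0.43 for Nr5a2. In KO plus mutant over Sall4 KO, they were 0.25 and -0.57 for Klf2, -0.13 and 0.12 for Klf5, -0.42 and 0.58 for Tfcp2l1, -0.90 and 0.73 for Tbx3, 0.81 and -0.10 for Prdm14, and 0.13 and -0.21 for Nr5a2. Strain label, unit and annotation change together between the replicates and cannot be told apart. With values as deposited, the replicate 1 ratio of KO plus mutant over Sall4 KO was -0.033 for Klf2 and -0.14 for Nr5a2, and the replicate 2 ratio was -0.16 for Klf5, so these 3 then had the same direction in both replicates.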

How the results depend on the processing

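With upper quartile scaling, limma called 2 genes in Sall4 KO over Sall4 het and 17 in KO plus mutant over Sall4 KO, against 0 in each as reported. The calls in KO plus mutant over Sall4 KO lay between 0 and 764 when a library was left out, and the cause was not tested. At 2-fold, Sall4 KO over Sall4 het in replicate 2 gave 1 member with a pseudocount of 0.1 and 1 with upper quartile scaling, against 0. KO plus mutant over Sall4 KO in replicate 1 gave 2 with values as deposited, against 1.

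Directions turned for members with small changes. In Sall4 KO over Sall4 het, upper quartile scaling gave 0.027 for Klf2 and 0.052 for Nr5a2, and values as deposited gave 0.0065 for Nr5a2. Leaving out a library gave -0.39 to 0.26 for Klf2, -0.29 to 0.31 for Klf4, -0.40 to 0.49 for Tbx3, -0.055 to 0.68 for Prdm14 and -0.55 to 0.48 for Nr5a2. In KO plus mutant over Sall4 KO, values as deposited gave -0.28 for Klf5 and -0.18 for Tfcp2l1, and upper quartile scaling gave 0.038 for Nr5a2. Leaving out a library gave -0.46 to 0.19 for Klf2, -0.22 to 0.20 for Klf5, -0.33 to 0.54 for Tfcp2l1, -0.92 to 0.73 for Tbx3 and -0.45 to 0.35 for Nr5a2. As deposited, the add-back pairs had medians over all genes of -0.31 (KO plus mutant, replicate 1), -0.28 (KO plus mutant, replicate 2) and -0.25 (KO plus wild type), and 3, 1 and 2 members changed sign. Nanog and Nr0b1 kept their direction in both comparisons under every alternative run, as did Tfcp2l1 and Klf5 in Sall4 KO over Sall4 het, and Prdm14 in KO plus mutant over Sall4 KO, but their sizes moved. Leaving out a library gave -1.50 to -0.13 for Nanog, 0.12 to 0.57 for Nr0b1, 0.76 to 1.62 for Tfcp2l1 and 0.11 to 0.66 for Klf5 in Sall4 KO over Sall4 het, and 0.33 to 2.50 for Nanog, -0.67 to -0.24 for Nr0b1 and 0.0089 to 0.75 for Prdm14 in KO plus mutant over Sall4 KO.

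Without the replicate block, limma called 0 genes in each comparison, as with it, and no other call changed. Read depth is unknown, so no value has a limit from counting.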
